A study of Mus musculus with 24 samples.

Results

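The genes described here encode the main protein families that the liver secretes into blood plasma. They were taken by gene symbol alone, with a pattern for the serpins (Serpin), apolipoproteins (Apo), complement components, coagulation factors with protein C (Proc), fibrinogen chains, inter-alpha-trypsin inhibitor heavy chains (Itih), kininogens (Kng) and Masp proteases. Of the 2372 genes in the table, 48 matched. They were 16 serpins, 11 apolipoproteins, 9 complement genes, 6 coagulation genes (F9, F10, F11, F12, F13b and Proc), 3 Itih genes (Itih2, Itih4 and Itih5), both kininogens (Kng1 and Kng2) and Masp2. No fibrinogen gene was among the 48. The symbols of 3 matches name proteins that are not plasma proteins: Apoo belongs to a complex of the mitochondrial inner membrane, and Serpinb6b and Serpinb8 are intracellular serpins.

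The RNA came from the livers of 24 mice (12 of each sex) that had all been fed the Lieber-DeCarli liquid alcohol diet for 3 weeks, so that every comparison here is between alcohol-fed animals. Every animal was injected on 2 occasions with AAV, adeno-associated virus made to deliver a short hairpin RNA. Injection 1 was AAV-shControl or the pair AAV-shKdm5b and AAV-shKdm5c, called the Kdm5 vectors below, against a pair of histone H3 lysine 4 demethylases. Injection 2 was AAV-shControl or AAV-shAhR, called the AhR vector, against the aryl hydrocarbon receptor, a ligand-activated transcription factor. Sex and both injections form 8 groups of 3 mice: control vectors only, Kdm5 vectors, AhR vector, and Kdm5 and AhR vectors, in each sex. The sources used here do not give the strain, the age, the promoter of the hairpins or the cells that took up the vectors.

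Most plasma proteins are made by hepatocytes. Serpins inhibit proteases, or carry hormones in the case of Serpina6 and Serpina7, and the mouse has several copies of the gene for alpha-1-antitrypsin (Serpina1a to Serpina1e). Apolipoproteins are the protein parts of the lipoprotein particles that carry lipids. Coagulation factors and complement components are mostly protease precursors that act in cascades, and both cascades are held in check by serpins; complement ends in a membrane attack complex built from C5b, C6, C7, C8 and C9. The secretion of growth hormone, which differs in its pattern between male and female rodents, is known to set the level of many liver transcripts.

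Values are FPKM, fragments scaled to transcript length and to the mapped fragments of the library, and read depth is unknown. The FPKM of the 2372 genes summed to 281871 to 326460 in females and 380206 to 429780 in males, with 19 major urinary protein genes in the table. Of the targeted genes Kdm5c was followed, and Kdm5b and Ahr are not analysed here. Control males had 6.39, 6.80 and 7.21 FPKM and the males given the Kdm5 vectors 4.89, 4.64 and 5.89 (log2 fold change -0.38, limma adjusted p = 0.14). The females lay at 11.1, 9.32 and 10.6 against 9.94, 9.90 and 9.05 FPKM (log2 fold change -0.09, adjusted p = 0.66), so that a reduction of Kdm5c in females was not shown. Averaged over the AhR settings its log2 change was -0.44 in males (adjusted p = 0.00215) and -0.17 in females (adjusted p = 0.17). Of 10 hepatocyte markers listed, 7 were in the table, and they summed to 3467 to 6608 FPKM. Of 11 macrophage and Kupffer cell markers 7 were in the table, and their sum was 363 to 497 FPKM in females and 189 to 336 FPKM in males. The 5 of 8 endothelial markers in the table summed to 65.0 to 98.4 FPKM in females and 43.5 to 59.9 in males, and the 4 of 8 stellate cell markers to 111 to 174 and 73.8 to 107; the part of these cells in the results was not tested. None of the listed T and B cell, neutrophil or platelet markers was in the table. In whole liver, fewer cells of a type and less RNA per cell cannot be told apart.

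Several of the most abundant serpin transcripts come from near-identical gene copies, and their regulatory sequence is shown first because the copies differ so widely in level. Serpina1a to Serpina1e lie in a cluster on chromosome 12, all on the minus strand. RefSeq promoters of build GRCm38.p6, the build named in the submitters' processing notes, share a stretch of 183 bases just upstream of the annotated start. It lies 1 to 12 bases from the start in Serpina1a to Serpina1d and 63 bases from it in Serpina1e. The stretches are printed 5′ to 3′ on the strand of the gene, with capitals for bases that differ from Serpina1e or are inserted relative to it.
Serpina1e: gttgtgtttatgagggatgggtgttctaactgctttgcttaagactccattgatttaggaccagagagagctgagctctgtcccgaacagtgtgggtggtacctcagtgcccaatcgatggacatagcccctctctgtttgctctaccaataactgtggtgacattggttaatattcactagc
Serpina1d: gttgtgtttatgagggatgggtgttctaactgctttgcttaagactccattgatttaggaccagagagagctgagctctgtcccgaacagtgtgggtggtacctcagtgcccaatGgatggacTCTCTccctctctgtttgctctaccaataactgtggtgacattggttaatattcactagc
Serpina1b: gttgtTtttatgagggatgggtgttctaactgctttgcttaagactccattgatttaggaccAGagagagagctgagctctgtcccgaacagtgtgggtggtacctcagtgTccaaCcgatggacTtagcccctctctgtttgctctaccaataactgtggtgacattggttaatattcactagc
Serpina1a: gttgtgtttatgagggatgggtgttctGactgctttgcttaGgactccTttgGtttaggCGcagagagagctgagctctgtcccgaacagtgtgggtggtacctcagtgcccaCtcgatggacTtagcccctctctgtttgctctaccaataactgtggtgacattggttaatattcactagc
Serpina1c: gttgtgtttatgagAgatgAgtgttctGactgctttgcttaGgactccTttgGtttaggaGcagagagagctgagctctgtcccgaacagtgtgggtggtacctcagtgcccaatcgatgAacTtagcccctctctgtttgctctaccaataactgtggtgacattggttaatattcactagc
The Serpina1e stretch is chr12:103956960-103957142. Against it, Serpina1d (chr12:103773634-103773816) differed at 6 bases, Serpina1a (chr12:103863625-103863807) at 8 and Serpina1c (chr12:103904962-103905144) at 9. Serpina1b (chr12:103738200-103738384) differed at 4 bases and carried 2 inserted bases. Identity to Serpina1e was therefore 95.1% to 96.7%. The last bases of the stretch are the same in all 5 copies and include GTTAAT, a part of the motif bound by the hepatocyte factor HNF1.

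Across the set, 37 of the 48 genes had a RefSeq promoter in the table used. Searched on both strands of the 250 bases upstream of the start, GTTAAT was found in 11 of the 37 and in 7.49% of 27025 genes. The 5 Serpina1 copies account for 5 of these 11, which also include C8a, C8b, Serpina7 and Apoe. TTNNGCAA, a C/EBP-type motif, was found in 13 of the 37 and in 10.8% of all genes. TTCNNNGAA, a STAT-type motif, was found in 4 of the 37 (C8a, F9, Itih4 and Masp2) and in 8.13% of all genes. The 3 patterns were searched separately, so matches of different patterns may overlap. A match is a run of letters and not a measured binding site.

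How far the copies can be told apart by reads bears on every value given for them. All 50-base windows in the GENCODE transcripts of the same build were compared between the Serpina genes of the set and Serpina3a to Serpina3n. Further Serpina genes were not searched. The share found in no other of these genes was 26.7% for Serpina1c, 48.6% for Serpina1a, 52.0% for Serpina1d, 65.4% for Serpina1e and 71.8% for Serpina1b. It was 86.3% for Serpina3k and 93.3% for Serpina3n. How reads that fit several copies were counted is not stated in the sources used here, so the levels of single Serpina1 copies are uncertain.

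As a class, apolipoproteins made up the largest summed output, at 50248 ± 3717 FPKM (SD, n = 12) in females and 50635 ± 2599 in males. The range over libraries was 44310 to 57334 FPKM in females and 47980 to 57142 in males, so the sexes overlapped fully. Serpins came next, at 25583 ± 1905 FPKM in females (22769 to 29617) and 36230 ± 3225 in males (32188 to 43248), with no overlap. Without Serpina1e the serpin sum was 25336 ± 1799 FPKM in females and 30871 ± 1199 in males, and the ranges overlapped, from 22700 to 29226 and from 29024 to 33435. The inter-alpha-trypsin inhibitor heavy chains showed the opposite order, at 1091 to 1439 FPKM in females and 668 to 913 in males. Complement summed to 2495 to 3362 FPKM in females and 2195 to 2711 in males, kininogens to 1110 to 1449 and 896 to 1237, and coagulation genes to 739 to 881 and 711 to 830. All 48 genes together summed to 74707 to 92830 FPKM in females and 86141 to 97798 in males. They took 25.8% to 29.2% of the summed FPKM of the table in females and 21.8% to 24.9% in males, where the major urinary protein genes took 14.0% to 25.7% of it, against 2.26% to 5.93% in females. These sums rank transcript abundance per length and are not amounts of protein. They are on the deposited scale, and the order of the sexes depended on it in some classes. After rescaling the libraries by median-of-ratios factors, apolipoproteins summed to 42138 to 56002 FPKM in females and 49142 to 57536 in males. The mean coagulation sum was 807 FPKM in females and 779 in males as deposited, and 773 and 813 after rescaling.

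Within groups, the classes varied to different degrees. The median coefficient of variation between the 3 mice of a group was 4.66% over the coagulation genes, 8.76% over the apolipoproteins, 12.4% over the complement genes and 16.3% over the serpins. Members of a class also differed widely, from 4.31% (Serpina1a) to 48.3% (Serpina1e) in serpins and 8.05% (C2) to 34.55% (C4a) in complement. Members near 1 FPKM, such as C4a and Serpinb6b (27.0%), add to these medians. The part of expression level in them was not tested. F9, a vitamin K-dependent coagulation factor, was the steadiest member at 2.94%. Apoa4, an apolipoprotein of triglyceride-rich particles and HDL, was the most variable at 49.4%, followed by Serpina1e at 48.3%. In males with the Kdm5 vectors, for example, Apoa4 measured 393, 1433 and 276 FPKM.

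The comparison of the sexes held most of the differences in the set. Adjusted p-values here are limma's, on log2(FPKM + 0.5) and adjusted by Benjamini-Hochberg over the 2299 genes tested, a scale that understates the change of low genes; a ± after a log2 value is its standard error. With control vectors, 25 of the 48 genes passed an adjusted p of 0.05, 13 higher and 12 lower in females, a share of 52.1%; of all genes tested 42.5% passed, 30.8% higher and 11.6% lower. Averaged over the 4 vector settings, 32 of the 48 passed, 16 in each direction, a share of 66.7%; of all genes tested 62.3% passed, 42.9% higher and 19.4% lower. The median log2 difference of the 48 was 0.05 with control vectors and 0.01 averaged, against 0.15 and 0.08 over all genes tested. Rescaling the libraries by median-of-ratios factors shifted the median of all genes by 0.15 and 0.12 log2 in the 2 comparisons. The split of the 48 then became 6 higher and 17 lower with control vectors, and 8 higher and 23 lower averaged. Calls gained by this rescaling were Apon, C2, Serpina3n, Masp2 and F9 with control vectors. Averaged, they were Apon, Proc, Serpina1a, Serpina3n, F9, Serpinf1 and Apoa2. A score of clock genes, the mean standardised level of 8 genes of one phase minus that of 4 of the opposite phase, also differed, at -2.15 to -1.49 in control females and -1.17 to 0.65 in control males. With this score as a covariate 21 of the 48 passed in the averaged comparison. The 11 calls lost were C2, C8g, Masp2, F10, F11, F12, Serpina1b, Serpina10, Serpinb6b, Apoe and Apoh. The shares of all genes passing after rescaling or with the clock score are not given here. The counts from those 2 fits are therefore not read as particular to the 48.

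The FPKM ranges of the 12 females and the 12 males did not overlap at all for 12 of the 48 genes. Across all genes tested the same held for 13.4%. Higher in every female than in any male were C3, Itih4 and Kng2, and higher in every male were C6, C8a, C8b, C9, Serpina12, Serpina1c, Serpina1e, Serpina3k and Serpine2. Except where a control-vector value is named, the log2 differences in the next paragraphs are females minus males averaged over the vector settings.

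**Figure D1:**
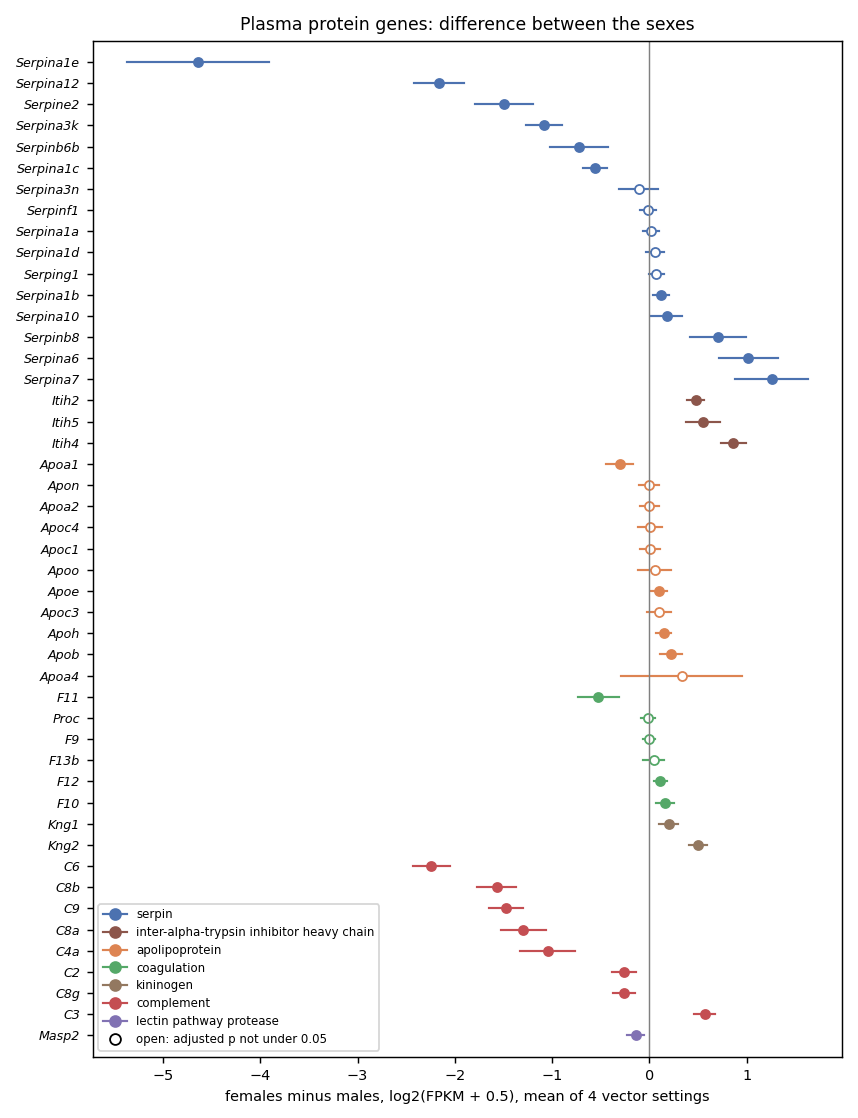
Log2 difference of females minus males for 47 of the 48 genes, as the mean of the 4 vector settings on the log2(FPKM + 0.5) scale; lines are 95% confidence intervals, colours are classes and open circles did not pass an adjusted p of 0.05. Serpina1e lies far to the left at -4.64, 5 complement genes lie at -1.04 or below, and the 3 Itih genes all lie to the right of 0.

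Among the serpins, 5 of 16 were higher and 6 lower in females. Serpina1e (chromosome 12, 103946931 to 103956897) had the largest difference of the whole set. With control vectors it measured 175, 367 and 297 FPKM in the females and 3165, 4022 and 9814 FPKM in the males. Over all settings it ranged from 47.9 to 480 FPKM in females (median 274.7) and from 2082 to 9814 in males (median 4840). The lowest male library thus held more than the highest female library by a wide margin, while the males also differed widely among themselves. The log2 difference was -4.64 ± 0.35 (adjusted p = 5.79e-10), or 25.0-fold lower in females. The interval ran from -5.38 to -3.91.

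The other copies of alpha-1-antitrypsin, the main plasma inhibitor of neutrophil elastase, followed this pattern weakly or not at all. Serpina1c, the most abundant serpin by its mean over all 24 libraries though below Serpina1b in females, ranged from 4798 to 6929 FPKM in females and from 7729 to 9530 in males (-0.56 ± 0.06, adjusted p = 8.42e-08). Serpina1a lay at 3037 to 4098 FPKM in females and 3182 to 3871 in males, and Serpina1d at 3283 to 4412 and 3409 to 3929. Neither passed. Serpina1b lay at 5723 to 7578 and 5686 to 6814 FPKM, with a log2 difference of 0.12 ± 0.04 (adjusted p = 0.0131) that became -0.01 after median-of-ratios scaling. As the copies share most of their sequence, a single number for the family is safer: Serpina1a to Serpina1e summed to 18062 to 23345 FPKM in females and 24127 to 33105 in males.

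Serpina3k, also called contrapsin, ranged from 2352 to 4121 FPKM in females and from 5425 to 8336 in males (-1.08 ± 0.09, adjusted p = 2.10e-09). Its cluster neighbour Serpina3n, an acute-phase protease inhibitor, lay at 275 to 592 and 356 to 538 FPKM and did not pass. After median-of-ratios scaling Serpina3n did pass. Serpina12, the adipokine vaspin, was low in both sexes, at 0.49 to 1.99 FPKM in females and 4.44 to 8.44 in males (-2.16 ± 0.12, adjusted p = 5.99e-12). Serpine2, an inhibitor of thrombin and urokinase, lay at 0.16 to 1.64 and 2.12 to 4.79 FPKM (-1.50 ± 0.14). The intracellular Serpinb6b was likewise lower in females (-0.72 ± 0.14), at levels of 0.54 to 4.17 FPKM, and stood at -0.17 with the clock score as a covariate (adjusted p = 0.71).

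The hormone carriers ran the other way. Serpina6, corticosteroid-binding globulin, measured 217, 168 and 178 FPKM in control females and 82.2, 86.2 and 41.9 FPKM in control males. It was 2.02-fold higher in females over all settings (1.02 ± 0.14, adjusted p = 3.33e-06). Serpina7, thyroxine-binding globulin, whose gene lies on chromosome X, measured 22.7, 8.37 and 27.0 FPKM in control females and 4.80, 7.46 and 1.97 in control males (1.26 ± 0.18 over all settings, adjusted p = 4.12e-06). Over all settings the ranges of both genes overlapped between the sexes. Serpina10, the inhibitor of factor Xa and factor XIa, stood at 0.18 ± 0.08 (adjusted p = 0.0495), a call lost in 15 of the 24 fits without 1 mouse, after median-of-ratios scaling, with the filter at 10 FPKM and with the clock score as a covariate. The intracellular Serpinb8 was higher by 0.71 ± 0.14. Serping1, the C1 inhibitor, and Serpinf1, an anti-angiogenic serpin also known as PEDF, did not pass. After median-of-ratios scaling Serpinf1 did pass.

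**Figure D2:**
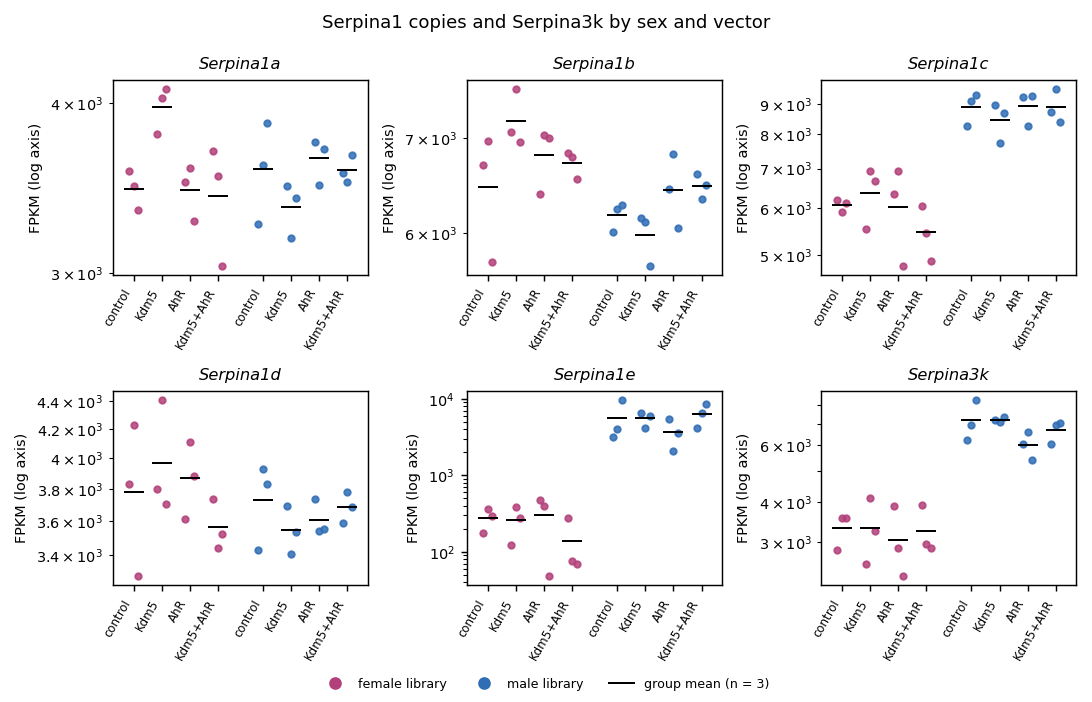
FPKM (log axis, a separate scale per panel) of the 5 Serpina1 copies and Serpina3k in each library, by sex and vector setting; dots are mice and bars are means of 3. Serpina1e, Serpina1c and Serpina3k separate the sexes without overlap, whereas Serpina1a, Serpina1b and Serpina1d overlap.

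In complement, 7 of 9 genes were lower in females and C3 alone was higher. The chains of the membrane attack complex carried most of this. C6 (chromosome 15, 4727067 to 4804045) measured 7.81, 7.89 and 7.24 FPKM in control females and 39.9, 42.6 and 66.1 in control males, with all 12 females between 7.24 and 10.1 FPKM and all 12 males between 28.7 and 66.1. Its log2 difference was -2.24 ± 0.09 (adjusted p = 2.15e-14), or 4.73-fold lower in females. C9, also on chromosome 15 (6445346 to 6498825) and the chain that polymerises into the pore, lay at 46.2 to 89.0 FPKM in females and 115 to 192 in males (-1.48 ± 0.08, adjusted p = 4.59e-12).

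C8 is built from an alpha, a beta and a gamma chain with genes in different places. C8a and C8b are neighbours on chromosome 4 (104815679 to 104876487 and 104766317 to 104804548). C8a ranged from 33.1 to 79.8 FPKM in females and from 90.3 to 137 in males (-1.30 ± 0.11), and C8b from 27.5 to 54.1 and from 88.0 to 132 (-1.57 ± 0.10). C8g lies on chromosome 2, and its ranges of 157 to 254 and 197 to 266 FPKM overlapped. Its difference was -0.26 ± 0.05 (adjusted p = 0.00033), and -0.24 with the clock score as a covariate (adjusted p = 0.15). With control vectors C8g did not pass (females 254, 233 and 209 FPKM, males 197, 227 and 225). Together C6, C8a, C8b, C8g and C9 summed to 277 to 432 FPKM in females and 578 to 732 in males.

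C3, the central component that is cleaved in all pathways of complement and by far the most abundant here, had 2032 to 2709 FPKM in females and 1359 to 1777 in males. With control vectors the females measured 2358, 2211 and 2709 FPKM and the males 1658, 1679 and 1359. The difference was 0.57 ± 0.05 (adjusted p = 1.47e-08), or 1.48-fold higher in females. C2, the protease of the classical and lectin convertase, was lower in females by a small margin (-0.26 ± 0.06), as was Masp2, the protease that cleaves it in the lectin pathway (-0.14 ± 0.04). With the clock score as a covariate C2 stood at 0.04 (adjusted p = 0.83) and Masp2 at -0.09 (adjusted p = 0.47). C4a, known as sex-limited protein, was low at 0.22 to 0.94 FPKM in females and 0.65 to 2.47 in males (-1.04 ± 0.14, adjusted p = 1.12e-06). It is nearly identical to its neighbour C4b, so its value is uncertain.

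**Figure D3:**
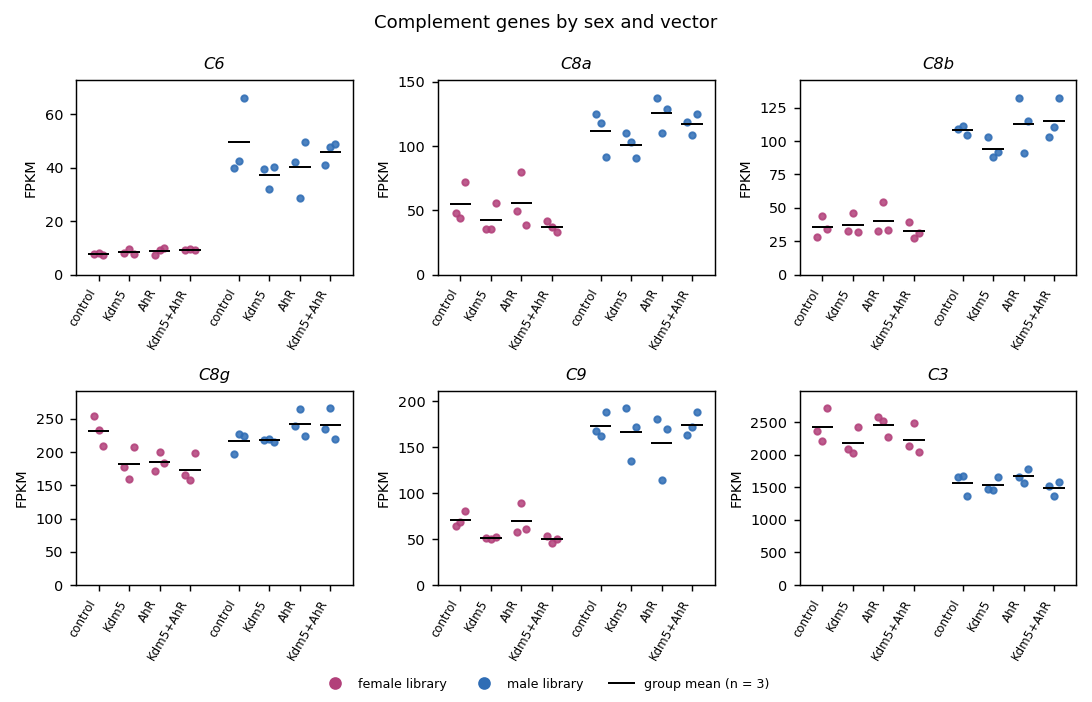
FPKM (linear axis from 0, a separate scale per panel) of C6, C8a, C8b, C8g, C9 and C3 in each library, by sex and vector setting; dots are mice and bars are means of 3. C6, C8a, C8b and C9 are higher in every male than in any female, C3 is the reverse, and C8g overlaps.

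All 3 inter-alpha-trypsin inhibitor heavy chains, which are carried on bikunin or circulate alone and stabilise hyaluronan, were higher in females. Itih4 (chromosome 14, 30886476 to 30901986) measured 851, 636 and 972 FPKM in control females and 476, 463 and 395 in control males. Over all settings it lay at 636 to 972 and 395 to 504 FPKM (0.86 ± 0.06, adjusted p = 1.86e-10), or 1.82-fold higher in females. Itih2 ranged from 391 to 481 FPKM in females and from 272 to 424 in males (0.48 ± 0.04, adjusted p = 4.20e-09). Itih5, its neighbour on chromosome 2, differed by 0.55 ± 0.08 at levels of only 0.99 to 2.98 FPKM.

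Kininogens are the precursors of bradykinin and cofactors of contact activation. Kng2 lay at 158 to 204 FPKM in females and 101 to 142 in males (0.50 ± 0.04, adjusted p = 6.54e-09), with no overlap. Kng1, the more abundant of these neighbours on chromosome 16, lay at 952 to 1259 and 794 to 1095 FPKM and overlapped (0.20 ± 0.05, adjusted p = 0.000884). Among the coagulation genes, F11, the factor activated by factor XIIa, was lower in females, at 10.2 to 20.3 FPKM against 15.9 to 26.6 in males (-0.52 ± 0.10, adjusted p = 0.00013), and stood at -0.34 with the clock score as a covariate (adjusted p = 0.26). F12, which starts the contact pathway, and F10, whose active form cleaves prothrombin, were higher by 0.11 ± 0.03 and 0.16 ± 0.05. F9, F13b and Proc did not pass in the averaged comparison, though F9 and Proc did after median-of-ratios scaling. Proc, the precursor of the anticoagulant protein C, passed with control vectors only as a small difference (females 245, 240 and 242 FPKM, males 215, 232 and 193; 0.19 ± 0.07, adjusted p = 0.0309). The calls of Kng1, F10 and F12 were lost after median-of-ratios scaling, and so was that of Proc with control vectors.

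Among the apolipoproteins, 4 of 11 passed and 7 did not. Apoa1, the main protein of HDL, was lower in females, at 6677 to 11656 FPKM against 9512 to 12749 in males (-0.31 ± 0.07, adjusted p = 0.000367). Apob, the structural protein of VLDL and chylomicron particles, was higher at 370 to 637 against 369 to 493 FPKM (0.22 ± 0.05, adjusted p = 0.00128). With control vectors its means were 422 FPKM in females and 421 in males, and the averaged value rests on the mice with the AhR vector, alone (515 against 429 FPKM) or with the Kdm5 vectors (597 against 374). Apoh, which binds phospholipid, and Apoe, a ligand of the LDL receptor family, differed by 0.15 ± 0.04 and 0.10 ± 0.04. All of the last 3 calls were lost after median-of-ratios scaling, where Apoe reached -0.03. The call of Apoe was also lost in 14 of the 24 fits without 1 mouse. Apoa2, the second protein of HDL and the most abundant gene of the whole set, had 13548 to 18482 FPKM in females and 14250 to 18815 in males. Apoa2 and Apon did not pass as deposited, but both passed after median-of-ratios scaling. Apoa1, Apoc3 and Apoa4 are neighbours on chromosome 9, yet only Apoa1 passed of these, and whether they differ from each other was not tested.

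Other genes of these pathways were compared from fixed lists. In the averaged comparison 42.9% of all genes tested were higher in females and 19.4% lower, and the counts below stand beside these shares. Of 27 other complement genes listed, 16 were in the table, and 8 were higher and 6 lower in females averaged over the settings. Susd4, a complement inhibitor, and Cfd, factor D, were the lowest, at -2.69 ± 0.16 and -2.27 ± 0.27 log2, and Mbl2, a lectin that starts the lectin pathway, was the highest at 1.07 ± 0.12. Levels of Susd4 were low, at 0.27 to 1.96 FPKM in females and 4.96 to 9.86 in males. Those of Cfd were 0 to 0.44 and 0.92 to 12.87 FPKM. Among the higher genes, C1qa, C1qb and C1qc, are also macrophage markers, and all 7 macrophage markers in the table were higher in females; their part in the complement counts was not tested. Of 24 other coagulation and fibrinolysis genes 7 were in the table, with 2 higher and 1 lower: Ggcx and Vkorc1 of the vitamin K cycle (0.46 ± 0.07 and 0.29 ± 0.05) and the thrombin receptor F2r (-0.44 ± 0.08). Of 21 genes of lipoprotein assembly and uptake 12 were in the table, with 10 higher and 1 lower, led by Vldlr (1.43 ± 0.13), Tm6sf2 (0.76 ± 0.11) and Lpl (0.70 ± 0.10). Vldlr was low, at 0.92 to 3.85 FPKM in females and 0.29 to 1.02 in males. Of 44 other plasma protein genes 26 were in the table, with 10 higher and 5 lower, with Afp (2.79 ± 0.14), Hamp2 (2.04 ± 0.19) and Mug1 (-1.36 ± 0.09) furthest from 0. Afp did not differ with control vectors alone, where females had 0.05, 0.23 and 0.33 FPKM and males 0.35, 0.34 and 0.17; its averaged value comes from the females given the other vectors.

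The vectors changed few of the 48 genes. The 3 comparisons within a sex share their 3 control mice, so their values are given side by side. In females, the Kdm5 vectors changed 1 of the 48, a share of 2.08%, where 6.87% of all genes tested passed. The AhR vector changed none by limma (4 had an unadjusted p under 0.05), where 0.217% of all genes passed, and both together changed 4, a share of 8.33%, where 11.6% passed. In males, the Kdm5 vectors changed none (2 unadjusted; 1.22% of all genes), the AhR vector changed 1 (1.09% of all genes) and both together none (2 unadjusted; 2.35% of all genes). The median log2 change of the 48 was -0.03, -0.06 and -0.12 in females for the Kdm5 vectors, the AhR vector and both, against -0.02, -0.01 and 0.02 over all genes tested. In males it was 0.01, 0.09 and 0.06, against 0.01, 0.07 and 0.01. With estimated library weights the count in females rose to 7 for the Kdm5 vectors and 12 for both. The share of all genes passing with these weights is not given here, so the rise is not read as particular to the 48.

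**Figure D4:**
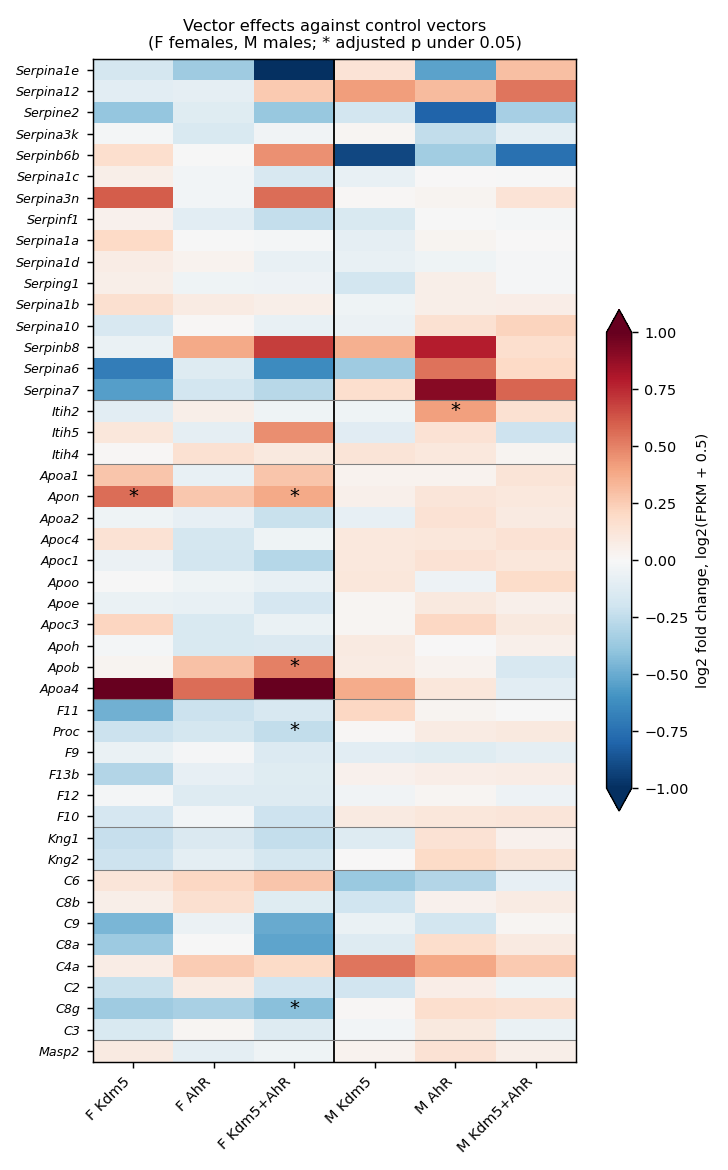
Log2 fold change of 47 of the 48 genes against control vectors of the same sex, for the 3 vector settings in females (F) and males (M); the colour scale ends at 1 in either direction and an asterisk marks an adjusted p under 0.05. The marked cells are Apon in 2 female columns, Apob, C8g and Proc in females with both vectors, and Itih2 in males with the AhR vector.

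Apon, which encodes a minor apolipoprotein of HDL and LDL, was the gene that responded to the Kdm5 vectors in females. Control females measured 164, 179 and 166 FPKM and females with the Kdm5 vectors 254, 249 and 247, with no overlap. Females with the AhR vector measured 195, 195 and 224 FPKM and those with both 236, 199 and 230. The log2 fold change was 0.56 ± 0.10 with the Kdm5 vectors (adjusted p = 0.00462), 0.27 ± 0.10 with the AhR vector (adjusted p = 0.25) and 0.38 ± 0.10 with both (adjusted p = 0.0233). The first call held in all 6 fits that left out 1 mouse. It was lost in the fit of the compared groups alone, at an adjusted p of 0.0725. In males Apon lay between 174 and 237 FPKM in all settings. Marker sums of other cells moved too, from 65.0 to 76.8 (endothelial) and 117 to 131 FPKM (stellate) in control females. They lay at 85.5 to 87.8 and 137 to 156 FPKM in females with the Kdm5 vectors. With the AhR vector alone they lay at 77.7 to 86.7 and 111 to 138 FPKM. The part of these cells in the Apon values was not tested.

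Apob rose in females that received both vectors. Its values were 382, 418 and 466 FPKM with control vectors, 467, 452 and 370 with the Kdm5 vectors, 480, 538 and 528 with the AhR vector and 544, 637 and 611 with both. The groups with the AhR vector thus lay above those without it in every mouse. The log2 fold change with both was 0.50 ± 0.11 (adjusted p = 0.00953), or 1.42-fold, and with the AhR vector alone 0.29 ± 0.11 (adjusted p = 0.26). Males with both vectors measured 378, 376 and 369 FPKM against 493, 390 and 379 with control vectors, which did not pass.

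C8g and Proc fell in females with both vectors. C8g measured 254, 233 and 209 FPKM with control vectors, 178, 159 and 207 with the Kdm5 vectors, 172, 200 and 183 with the AhR vector and 166, 157 and 198 with both. All 3 vector settings lay below the controls, and the one with both passed (-0.42 ± 0.11, adjusted p = 0.0249). After median-of-ratios scaling C8g also passed with the Kdm5 vectors alone. Proc measured 245, 240 and 242 FPKM with control vectors, 201, 209 and 215 with the Kdm5 vectors, 214, 209 and 222 with the AhR vector and 217, 205 and 191 with both (-0.25 ± 0.07 with both, adjusted p = 0.0293). For Proc, too, every mouse with a vector against a target lay below all 3 controls.

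In the same comparison 35 of the 48 genes had a log2 change below 0, among them all 6 coagulation genes, 7 of 9 complement genes and 7 of 11 apolipoproteins. Over all genes tested 1090 of 2299 were below 0. Sums of markers of other cells also moved here. The endothelial sum lay at 65.0 to 76.8 FPKM in control females and 85.5 to 98.4 with both vectors. The stellate cell sum lay at 117 to 131 and 152 to 174, without overlap. Dcn made up most of the stellate sum, at 109 to 118 and 140 to 161 FPKM. Reln rose from 5.31 to 6.12 to 6.35 to 7.64 FPKM, whereas Col3a1 overlapped and Lrat did not rise (2.93, 1.40 and 3.29 against 1.87, 2.52 and 2.70). Of the markers 1 of 5 endothelial and 1 of 4 stellate passed, and their part in the 35 values was not tested. Of the single values, C9 stood at -0.51 ± 0.16 (adjusted p = 0.0502), Serpinf1 at -0.24 ± 0.08 (adjusted p = 0.0534) and Apoc1, an inhibitor of lipoprotein lipase, at -0.29 ± 0.10 (adjusted p = 0.0558). The clock score moved with this comparison, from -2.15 to -1.49 in control females to -0.16 to 1.17 in females with both vectors. With the score as a covariate none of the 4 genes passed; Apob then stood at 0.32 (adjusted p = 0.34) and C8g at -0.44 (adjusted p = 0.20). Each of the 4 calls was also lost in the fit of the compared groups alone and without control female 1. Without 1 of the females with both vectors, Apon was lost for mice 1 and 3, C8g for mice 1 and 2 and Proc for mice 2 and 3.

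**Figure D5:**
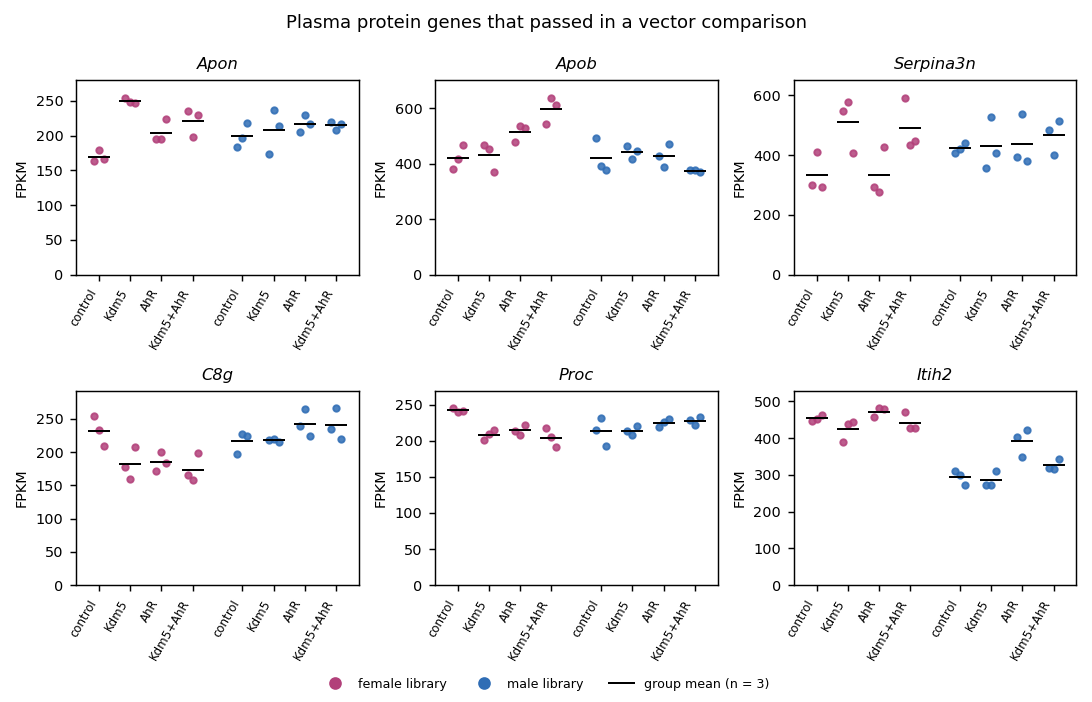
FPKM (linear axis from 0, a separate scale per panel) of Apon, Apob, Serpina3n, C8g, Proc and Itih2 in each library, by sex and vector setting; dots are mice and bars are means of 3. In females Apon is higher with the Kdm5 vectors and Apob with the AhR vector, C8g and Proc are highest with control vectors, and Itih2 in males is highest with the AhR vector.

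In males, Itih2 was the single gene that passed. It measured 310, 300 and 273 FPKM with control vectors, 274, 272 and 312 with the Kdm5 vectors, 404, 349 and 424 with the AhR vector and 319, 316 and 344 with both. The log2 fold change with the AhR vector was 0.41 ± 0.08 (adjusted p = 0.0128), or 1.33-fold. In females, where Itih2 was higher from the outset, the change was 0.06 and did not pass. The clock score was -1.17 to 0.65 in control males and 0.96 to 2.49 in males with the AhR vector. The male call was lost after median-of-ratios scaling, with the clock score as a covariate, in the fit of the compared groups alone, and in 3 of the 6 fits without 1 mouse (without control male 3, AhR vector male 1 or AhR vector male 3).

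Averaging over the other vector, a set of comparisons added after the data had been seen, gave 6 mice on each side. In females, 4 of the 48 genes passed for the Kdm5 vectors, where 9.35% of all genes tested passed. Serpina3n ranged from 275 to 428 FPKM without these vectors (median 297) and from 409 to 592 with them (median 497), a log2 change of 0.59 ± 0.14 (adjusted p = 0.0113). C9 ranged from 58.1 to 89.0 FPKM without and from 46.2 to 53.2 with the Kdm5 vectors, without overlap (-0.45 ± 0.12, adjusted p = 0.0188). Apon lay at 164 to 224 FPKM without and 199 to 254 with them (0.34 ± 0.07, adjusted p = 0.00657), and Apoa1 at 6677 to 8909 and 7930 to 11656 (0.31 ± 0.09, adjusted p = 0.0382). Leaving out a mouse kept the calls of Serpina3n and Apon in all 12 fits, that of C9 in 11 (not without AhR vector female 2) and that of Apoa1 in 5 (not without control female 3, Kdm5 vector females 1 or 2, AhR vector females 1 or 2, or females 1 or 2 with both). The call of C9 was also lost with the clock score as a covariate (adjusted p = 0.0677), and that of Apoa1 in the fit of the compared groups alone (adjusted p = 0.115).

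For the AhR vector averaged over the Kdm5 settings, 1 of the 48 genes passed in each sex, where 3.39% of all genes passed in females and 2.26% in males. In females it was Apob, at 370 to 467 FPKM without and 480 to 637 with the vector (0.39 ± 0.08, adjusted p = 0.0127). In males it was Itih2, at 272 to 312 and 316 to 424 FPKM (0.30 ± 0.06, adjusted p = 0.00719). The ranges did not overlap in either case. Both calls were lost with the clock score as a covariate, and that of Apob also in the fit of the compared groups alone and without Kdm5 vector female 3. For the Kdm5 vectors averaged in males none of the 48 passed by limma (3 unadjusted), where 2.22% of all genes did.

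Whether a vector acted differently in the 2 sexes was tested as the difference of the 2 effects. For the Kdm5 vectors none of the 48 passed by limma (9 unadjusted; 1.74% of all genes passed), and for the AhR vector none (9 unadjusted; 0.565%). The nearest for the Kdm5 vectors was Apon at 0.51 ± 0.14 (adjusted p = 0.07), which passed after median-of-ratios scaling. For both vectors together 3 of the 48 passed, where 5.92% of all genes did. These were Apob (0.66 ± 0.16, adjusted p = 0.0166), C8g (-0.57 ± 0.16, adjusted p = 0.0342) and Proc (-0.35 ± 0.10, adjusted p = 0.04). In all 3 the female change was the one that passed, and the male changes were -0.16, 0.15 and 0.10 log2. The call of Apob held in all 12 fits without 1 mouse. That of C8g held in 5 and was lost without females 1 or 2 of either group, control male 1, or males 1 or 2 with both vectors. That of Proc held in 3: without control female 3, female 1 with both vectors, and control male 2. For the Kdm5 vectors averaged over the AhR settings none of the 48 passed (7 unadjusted; 5.31% of all genes). Serpina3n and C9, which passed in females there, therefore were not shown to respond differently in males (0.54 ± 0.19, adjusted p = 0.10, and -0.52 ± 0.16, adjusted p = 0.0667).

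The same comparisons were read for the lists of related genes. In females, 2 of the 26 other plasma protein genes in the table rose and 2 fell with the Kdm5 vectors, 1 rose with the AhR vector, and 3 rose and 1 fell with both. Over all genes tested 6.87%, 0.217% and 11.6% passed in these comparisons. Afp, alpha-fetoprotein, measured 0.05, 0.23 and 0.33 FPKM in control females, 10.3, 5.85 and 8.54 with the Kdm5 vectors, 10.1, 16.9 and 20.4 with the AhR vector and 16, 25.2 and 21.4 with both. Lrg1, an acute-phase glycoprotein, rose by 0.84 ± 0.22 log2 with the Kdm5 vectors and 0.71 ± 0.22 with both, and Mug2, a relative of alpha-2-macroglobulin, changed by -0.80 ± 0.22 with the Kdm5 vectors. Crp, C-reactive protein, changed by -0.54 ± 0.13 with the Kdm5 vectors and -0.57 ± 0.13 with both, and Inhbe, an activin subunit, by 0.95 ± 0.26 with both. Of the 16 other complement genes, Cfhr2 alone passed, at -0.31 ± 0.09 with the Kdm5 vectors and -0.33 ± 0.09 with both. Of the 12 lipoprotein genes, Lipc, hepatic lipase, passed with the Kdm5 vectors (-0.62 ± 0.14), and with both 1 rose and 2 fell, among them Lipc and Lrp1, an endocytic receptor (-0.45 ± 0.14 and 0.43 ± 0.13). None of the 7 other coagulation genes passed in any of the 6 vector comparisons, and in males none of the genes on these 4 lists did.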

How the data were processed

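RNA-seq values of 24 whole-liver libraries, 3 mice in each of 8 groups, were used as deposited. The columns hold FPKM per gene to 2 decimals, per the file headers, although the deposited name of the table speaks of counts. GRCm38.p6, HISAT and Bowtie2 are named, per the submitters' processing notes; tool versions, the counting step and the choice of the 2372 genes are not stated in the sources used here. Depth is unknown, so no counting interval was computed.

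The test took 2299 genes that reached 1 FPKM in 3 or more libraries, all 48 members among them, and left out 73. Values were taken as log2(FPKM + 0.5), a log2 scale computed from the deposited FPKM, and fitted with limma 3.58.1 in R 4.3.3 (1 mean per group over all 24 libraries, trended and robust variance, 16 residual degrees of freedom). P-values were adjusted by Benjamini-Hochberg over all tested genes, with a threshold of 0.05, in 11 planned comparisons and 5 added after seeing the data. The fit was tested on simulated data. No pair of libraries held identical values. The labels give separate samples and no further detail of the animals, so p-values measure the spread between these samples.

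Named were the members past the threshold (at most the 15 highest and 15 lowest per comparison), the most abundant member of each class, and up to 3 genes per pathway list; Crp and Inhbe were named beside these after their values were seen, as were members close to the threshold or used to describe a family. The single values of 1 member and 1 listed gene are not reported here. The members and lists were chosen with earlier results of these data known. Alternatives were another scaling (median of ratios), other filters and pseudocounts, library weights, the compared groups alone, a clock score as a covariate and leaving out each mouse. Shared transcript windows were counted in GENCODE transcripts, and promoter sequences and gene positions were read from RefSeq tables of GRCm38.p6, in which all 48 members were matched by gene ID. Python 3.11.15, pandas 2.3.3 and matplotlib 3.10.9 were used for tables and figures.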

Additional observations from a re-analysis of the deposited data

Results flagged for a closer look

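Apob, C8g and Proc differed between the sexes in their response to the Kdm5 and AhR vectors together, by the test of the difference of the effects (limma, adjusted over all 2299 genes tested). The female minus male effect was 0.66 log2 for Apob (adjusted p = 0.0166), -0.57 for C8g (adjusted p = 0.0342) and -0.35 for Proc (adjusted p = 0.04). These were 3 of the 48 genes, where 5.92% of all genes tested passed. Of the 3 calls, that of Apob alone held in every fit without 1 mouse. Under the other alternatives 1 of the 3 calls held throughout. Apob was higher with both vectors in 3 of 3 females than in any control female, and C8g and Proc were lower in 3 of 3.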

How the results depend on the processing

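Counts are of the 48 genes passing an adjusted p of 0.05. The share of all genes passing under each alternative is not given beside them, so a rise or fall is not read as particular to the 48. Median-of-ratios scaling gave 2 for the Kdm5 vectors in females, 0 for the AhR vector in males, 1 for the female minus male effect of the Kdm5 vectors, and, averaged over the other vector, 2 for the AhR vector in females and 1 for the female minus male effect of the Kdm5 vectors. It turned the averaged sex differences of Serpina1b, Apoe and F12 to -0.0084, -0.025 and -0.011 log2, and the clock covariate turned that of C2 to 0.035. The filter at 10 FPKM gave 4 for the Kdm5 vectors in females. A pseudocount of 1 gave 2 for the averaged female minus male Kdm5 effect. Library weights gave 7 and 12 in females and 1 and 1 in males for the Kdm5 vectors and for both. They gave 2 and 6 for the female minus male effects of the Kdm5 vectors and of both. In the averaged comparisons they gave 11 and 1 for the Kdm5 vectors in females and males, 2 for the AhR vector in females and 5 for the female minus male Kdm5 effect. The clock covariate gave 0 for both vectors in females, 0 for the AhR vector in males, 0 and 0 for the averaged AhR effect in females and males, and 21 for the averaged sex difference. The compared groups alone gave 0 for the Kdm5 vectors and for both in females, 0 for the AhR vector in males, 16 for the sexes with control vectors and 1 for the female minus male effect of both. Averaged, they gave 1 for the Kdm5 vectors in males, 0 for the AhR vector in females and 2 in males. The cause of these shifts was not tested. The AhR vector in females gave 0 under every alternative.

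Leaving out 1 mouse gave 1 to 4 for the Kdm5 vectors in females, 0 to 5 for both, 0 to 2 for the AhR vector in males, 20 to 24 for the sexes with control vectors and 30 to 32 averaged. It gave 0 to 1 for the female minus male effect of the Kdm5 vectors, 1 to 3 for that of both, and, averaged, 2 to 6 for the Kdm5 vectors in females, 0 to 1 for the AhR vector in females and 0 to 4 for the female minus male Kdm5 effect. No paired analysis was possible because the labels give no replicate number, and numbers in accession order pair no mice. The unknown depth leaves the precision of members near 1 FPKM, such as C4a, Serpine2 and Serpinb8, open to counting error that cannot be sized. The same holds for low genes of the lists, such as Cfd, Susd4 and Vldlr.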
